A study of Rattus rattus with 8 samples.

Results

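The genes described here encode the enzymes, carriers and regulators of fatty acid oxidation in mitochondria and peroxisomes. They were 39 genes chosen by name and matched exactly to the gene symbols of the array's probe table. All 39 were found there, out of 16945 genes with a symbol. Liver RNA came from 4 male WH rats fed diet with 2500 ppm sodium phenobarbital (NaPB), a drug known to act in liver through the receptor CAR, and from 4 male WH rats fed diet with 0 ppm (control), both for 7 days. The labels give no age, and they name the organism as Rattus rattus. Each liver was measured on its own single-colour (Cy3) Agilent array and no animals were pooled, so 4 arrays per diet set how precise each value is.

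Liver takes up fatty acids, activates them to acyl-CoA esters and passes long chains into mitochondria on carnitine. There, a repeating cycle of dehydrogenase, hydratase, second dehydrogenase and thiolase reactions cuts them to acetyl-CoA, part of which leaves the liver as ketone bodies. Peroxisomes shorten very long and branched chains with their own set of enzymes and give off hydrogen peroxide, which catalase removes. The receptor PPAR-alpha, with its partner RXR, raises the transcription of many of these genes in the fasting liver.

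Levels are given as scaled intensity, the deposited linear intensity divided by the 75th percentile of the named features of the same array and averaged over the features of a gene on the log2 scale. A level can be compared between livers but not between genes. Changes are log2 differences, NaPB minus control, with the standard error (SE) of the difference from limma (n = 4 livers per diet). "Fell" and "rose" are used for genes with a Benjamini-Hochberg adjusted p under 0.05 over the 10944 genes tested. All 39 genes passed the filter on low values. Named features held at the lower limit of 0.03, called the floor here, made up 31.8% to 34.5% of each array. Pairs of arrays correlated at r = 0.977 to 0.984 within NaPB, 0.981 to 0.989 within control and 0.973 to 0.984 across diets, over the log2 values of all features. Cyp2b2, a cytochrome P450 that phenobarbital induces, averaged 128 in NaPB livers and 5.31 in control livers, with every NaPB liver above every control liver.

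Of the 39 genes, 7 fell with NaPB and none rose. The genes that fell were Acadm, Acadl and Hadh of mitochondrial beta-oxidation, Etfb, which carries electrons away from it, Cpt1b of the carnitine shuttle, and the peroxisomal oxidases Hao1 and Hao2. These made up 17.9% of the 39 genes, beside 4.29% of all tested genes that fell and 6.16% that rose. That balance depended on the scaling: with arrays shifted to the same median, 6.95% of all tested genes fell and 4.89% rose, and 10 of the 39 genes fell and 0 rose. The median log2 change was -0.18, against 0.0015 over all tested genes, and 30 of the 39 changes were below 0, beside 49.8% of all tested genes. In 11 of the 39 genes every NaPB liver lay below every control liver, and in none did every NaPB liver lie above. Over all tested genes, 8.36% had all NaPB livers lower and 10.8% had all NaPB livers higher. At an unadjusted p under 0.05 in limma, 16 of the 39 genes were lower and 0 higher, beside 12.5% of all tested genes lower and 14.3% higher. Of the 39 genes, 31 belonged to the 2736 brightest tested genes, of which 6.62% fell and 6.58% rose, and 6 of those 31 fell. Leaving out 1 liver at a time left 4 to 7 of the 39 genes lower and none higher, and all of the other alternative settings gave none higher as well. The count was 4 without control replicate 1 or 2 or without NaPB replicate 1 or 4, and 3 with the replicate number as a block. In whole liver tissue, fewer cells of a type and less RNA per cell cannot be told apart.

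**Figure D1:**
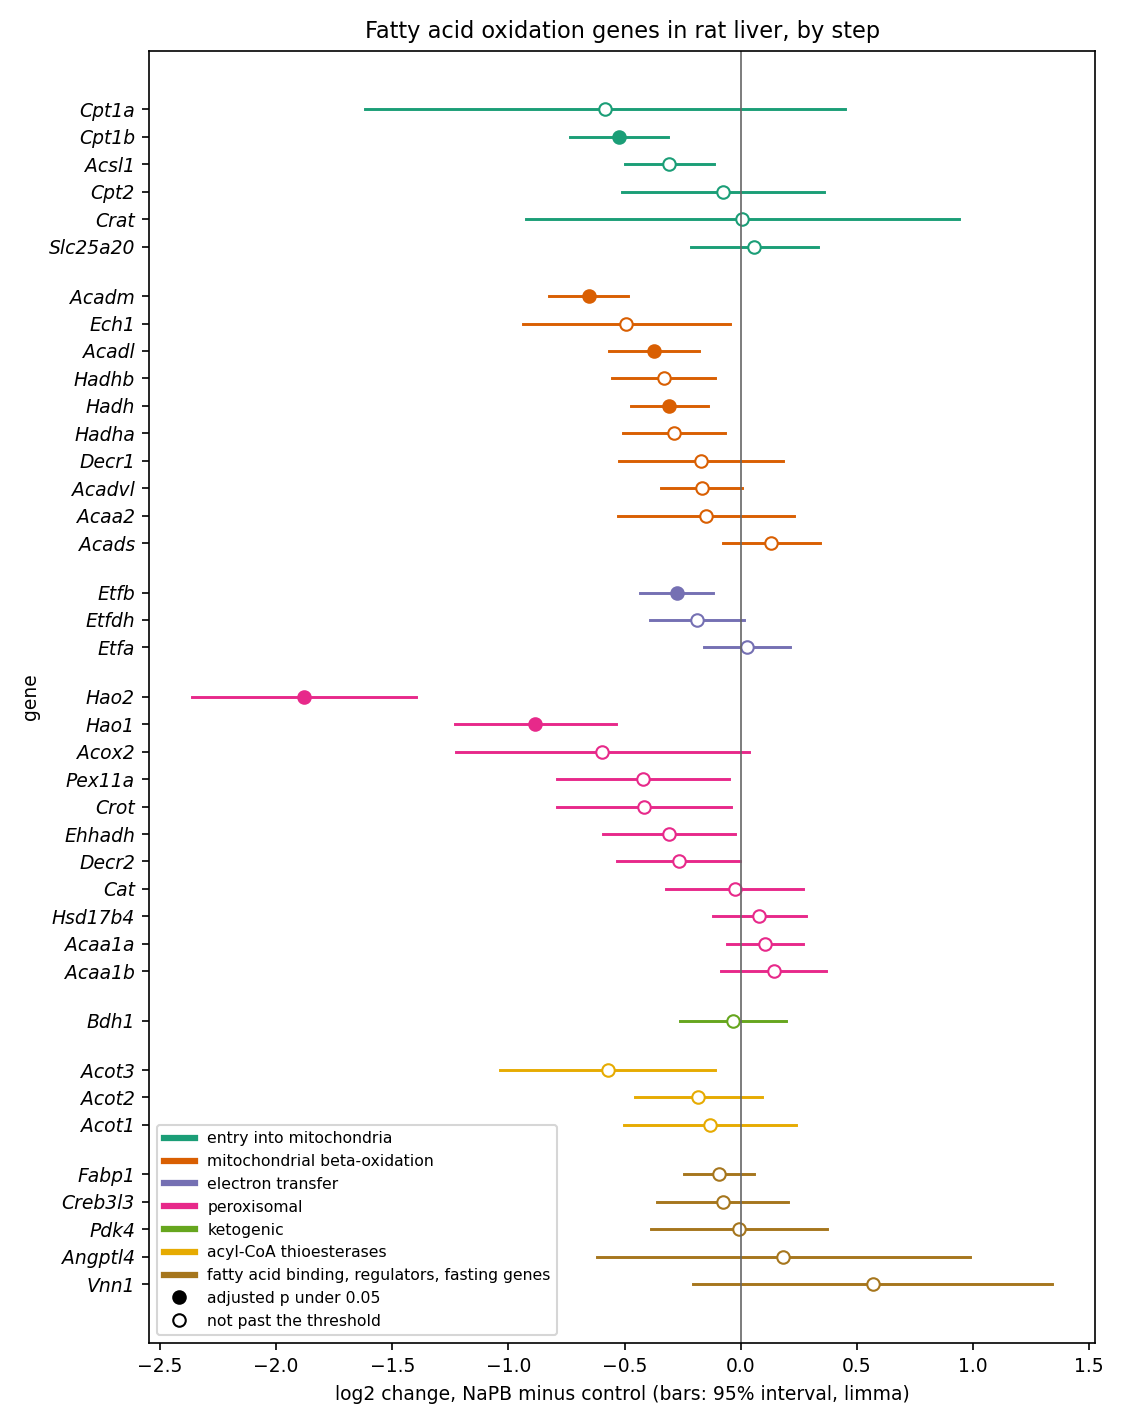
Log2 change (NaPB minus control, horizontal axis) of the 39 genes, with 95% intervals from limma as bars and colours for the step of the pathway; filled points are genes with an adjusted p under 0.05. All 7 filled points lie below 0, with Hao2 lowest at -1.88 and Vnn1 highest at 0.57.

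Some markers of liver cells passed the threshold as well, in a fit where 4.29% of all tested genes fell and 6.16% rose. A count of 1 marker in a list does not set that list apart from these shares. All 8 hepatocyte markers had changes below 0 and 2 fell (median -0.31, with summed levels of 1205 to 1369 in NaPB livers and 1437 to 1605 in control livers), namely Apoc3 by 0.56 ± 0.09 and Ahsg by 0.48 ± 0.09. Of 8 tested markers of perivenous hepatocytes, next to the central vein, 6 fell (median -0.95, summed levels of 89.3 to 99.5 in NaPB livers and 157 to 179 in control livers), and Lgr5 lay at the floor on every array. Of 9 markers of periportal hepatocytes, where fatty acid oxidation is highest, 2 fell (median -0.39, summed levels of 211 to 268 in NaPB livers and 286 to 346 in control livers). Of 8 Kupffer cell markers 1 fell (summed levels of 52.3 to 68.5 in NaPB livers and 56.2 to 66.3 in control livers), and of 8 stellate cell markers 3 fell (6.61 to 7.94 in NaPB livers and 8.46 to 12.3 in control livers). Of 5 sinusoidal endothelial markers 1 fell (11.7 to 13.8 in NaPB livers and 15.5 to 16.9 in control livers). This was Kdr, which had 8.61 to 10.2 in NaPB livers and 12.1 to 13.7 in control livers and made up most of that sum. The median change of the 5 was -0.0013. In each list the brightest markers weigh most in the sum. Of 4 tested bile duct markers 1 rose and 3 did not pass (summed levels of 0.885 to 1.06 in NaPB livers and 0.395 to 0.482 in control livers). The one that rose, Epcam, had 0.619 to 0.848 in NaPB livers and 0.227 to 0.279 in control livers and made up most of that sum, while Krt7, Krt19 and Spp1 lay near the floor and Sox9 lay at it on every array. Of 4 tested lymphocyte markers 1 fell (0.4995 to 0.575 in NaPB livers and 0.486 to 0.530 in control livers), and Cd3e, Cd2, Cd79a and Ms4a1 lay at the floor everywhere. Of 2 tested adipocyte markers 0 passed, also at an unadjusted p under 0.05 in limma (1.95 to 2.84 in NaPB livers and 1.99 to 2.94 in control livers), and Plin1 and Lep lay at the floor everywhere. Of 2 tested erythroid markers 0 passed, and both were lower at an unadjusted p under 0.05 in limma (7.65 to 13.6 in NaPB livers and 13.1 to 14.95 in control livers). The part of these marker changes in the decreases of fatty acid oxidation genes was not tested.

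By step, 5 of 19 genes of the mitochondrial route fell (entry into mitochondria, beta-oxidation and electron transfer together), with a median change of -0.28. Over all tested genes 4.29% fell, and 12.5% were lower at an unadjusted p under 0.05 in limma. Of the 11 peroxisomal genes 2 fell, with a median of -0.31. Both of these were 2-hydroxy acid oxidases, and of the 6 peroxisomal enzymes of beta-oxidation itself none passed in limma, with a median of -0.094 and 2 lower at an unadjusted p under 0.05. With 4.29% of all tested genes falling, 0 of 6 does not set these enzymes apart. The single ketogenic gene among the 39, Bdh1, did not pass, at -0.033. Differences between the steps were not tested, since the genes of a step share the same livers and are not replicates.

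Within mitochondrial beta-oxidation, 3 of 10 genes fell, with a median of -0.30. This count ranged from 1 to 5 over the other settings: it was 5 with arrays shifted to the same median, and 1 with the replicate number as a block. It was also 1 when NaPB replicate 1 or 4 was left out, and likewise when control replicate 1, 2 or 3 was. The acyl-CoA dehydrogenases, which open each turn of the cycle and divide the work by chain length, gave unlike values. Acadm, the medium-chain enzyme, had scaled intensities of 23.4, 25.2, 23.0 and 23.9 in NaPB livers, against 38.0, 38.9, 39.5 and 34.1 in control livers. The highest NaPB liver lay well below the lowest control liver. Acadm fell by 0.65 ± 0.08, to 63.5% of the control level (adjusted p = 0.00133 in limma), and its 10 features changed by -0.77 to -0.58.

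Acadl, the long-chain enzyme, had 39.5, 42.0, 37.1 and 34.6 in NaPB livers, against 49.5, 49.1, 53.7 and 46.1 in control livers. These groups did not overlap either, and Acadl fell by 0.37 ± 0.09 (adjusted p = 0.0288 in limma). Acadvl, the very-long-chain enzyme on the inner membrane, ranged from 9.996 to 11.4 in NaPB livers and from 10.96 to 12.3 in control livers. Its groups overlapped, and its change of -0.17 ± 0.08 did not pass (adjusted p = 0.194, 95% interval -0.34 to 0.0033). Acads, the short-chain enzyme, had 26.3, 26.8, 25.8 and 23.6 in NaPB livers, against 21.5, 26.1, 25.0 and 21.3 in control livers. The Acads groups overlapped, and the change was 0.13 ± 0.09 (adjusted p = 0.398, 95% interval -0.077 to 0.34).

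The decrease of Acadm was set against the other dehydrogenases within each liver. The log2 ratio of Acadm to Acads was -0.17 to 0.016 in NaPB livers and 0.58 to 0.82 in control livers, a difference of -0.79. The ratio of Acadm to Acadvl differed by -0.49 and that of Acadm to Acadl by -0.28, and in each of these ratios all NaPB livers lay below all control livers. These ratios, and those of the other gene pairs given here, were chosen after the values were seen, so they are descriptions and were not tested.

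Hadh, the short-chain hydroxyacyl-CoA dehydrogenase of the third reaction, had 63.9, 62.1, 63.7 and 56.1 in NaPB livers, against 74.9, 78.4, 78.3 and 72.3 in control livers. No NaPB liver reached a control liver, and Hadh fell by 0.31 ± 0.07 (adjusted p = 0.0329 in limma). Hadha and Hadhb encode the subunits of the mitochondrial trifunctional protein, which handles long chains. Hadha ranged from 2.72 to 3.20 in NaPB livers and from 3.21 to 4.09 in control livers, and Hadhb from 1.12 to 1.37 in NaPB livers and from 1.42 to 1.77 in control livers. Neither pair of groups overlapped, yet the changes of -0.29 ± 0.10 and -0.33 ± 0.10 missed the threshold (adjusted p = 0.0990 and 0.0667). Hadhb passed with arrays shifted to the same median and with a floor of 0.1, and Hadha with arrays shifted to the same median. With 1 liver left out, each of them passed in 0 of 8 cases. The ratio of Hadha to Hadhb differed by 0.045 on the log2 scale between the diets, which overlapped.

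The remaining mitochondrial enzymes did not pass. Acaa2, the thiolase that releases acetyl-CoA, was at -0.15 ± 0.17, and Decr1, which reduces intermediates of polyunsaturated fatty acids, was at -0.17 ± 0.16. Ech1, an isomerase for such intermediates, ranged from 3.33 to 5.45 in NaPB livers and from 4.95 to 7.93 in control livers. Its change of -0.49 ± 0.20 was the second lowest estimate of this step after that of Acadm, with an adjusted p of 0.148.

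**Figure D2:**
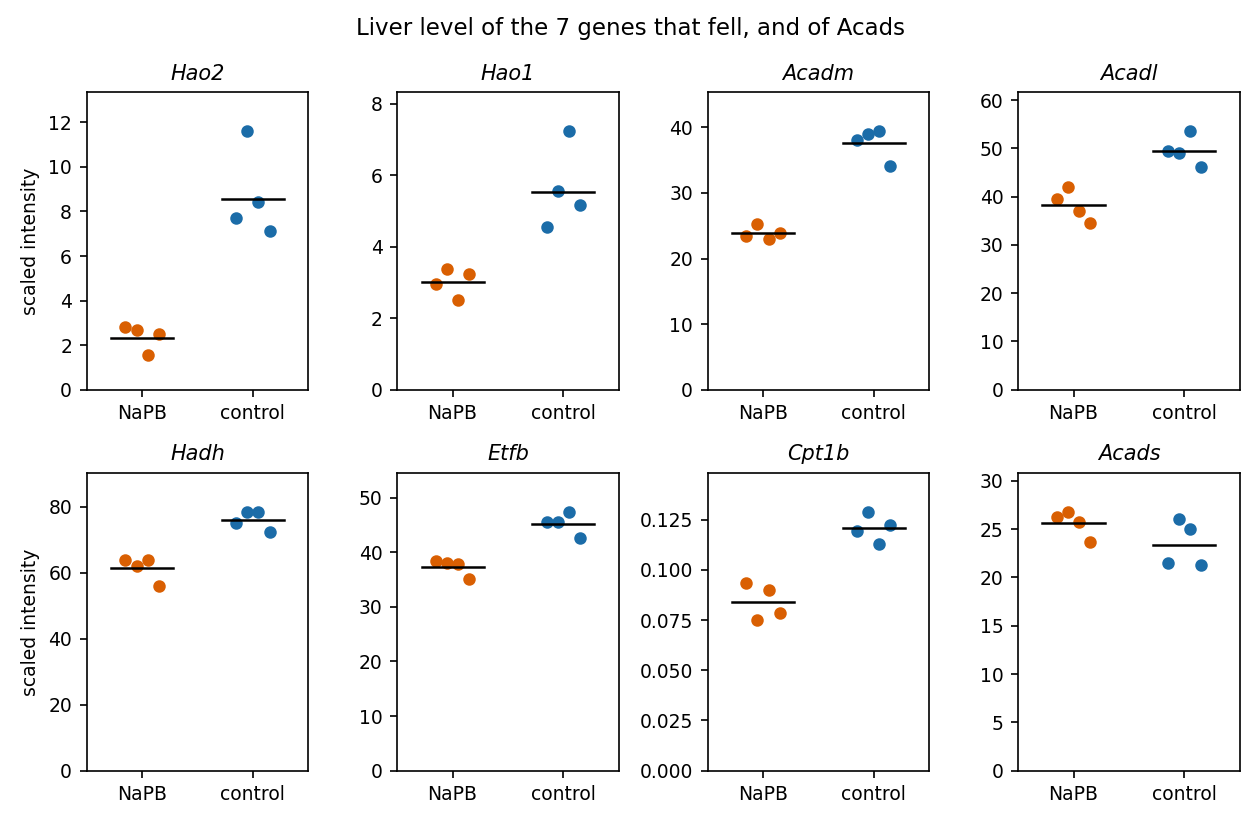
Scaled intensity (vertical axis, starting at 0 in each panel) of the 7 genes that fell and of Acads in 4 NaPB livers (left of each panel) and 4 control livers (right); bars are means on the log2 scale. The diets do not overlap in any of the 7 genes and overlap in Acads.

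Electrons from the acyl-CoA dehydrogenases pass through the electron transfer flavoprotein, a pair of subunits encoded by Etfa and Etfb, to the oxidoreductase encoded by Etfdh. Etfb had 38.5, 38.1, 37.8 and 35.2 in NaPB livers, against 45.6, 45.5, 47.4 and 42.6 in control livers. All NaPB livers were lower, and Etfb fell by 0.28 ± 0.07 (adjusted p = 0.0388 in limma). Etfa had 4.12, 4.93, 4.20 and 4.56 in NaPB livers, against 4.34, 4.57, 4.41 and 4.13 in control livers. These values overlapped, and the change was 0.027 ± 0.08 (adjusted p = 0.862), with a sign that turned to -0.034 when arrays were shifted to the same median. The ratio of Etfb to Etfa was lower by 0.30 on the log2 scale with NaPB, without overlap between the diets, a pair chosen because one subunit fell and the other did not pass. For Etfdh, the change of -0.19 ± 0.09 missed the threshold (adjusted p = 0.219).

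The calls of Acadl, Hadh and Etfb lay close to the threshold. With 1 liver left out, Acadl passed in 2 of 8 cases (without control replicate 4 or NaPB replicate 2), Hadh in 2 of 8 (without control replicate 4 or NaPB replicate 3) and Etfb in 1 of 8 (without control replicate 4). The highest adjusted p of the 8 cases was 0.0731 for Acadl, 0.0934 for Hadh and 0.0989 for Etfb. Their changes over the 8 cases were -0.42 to -0.33 for Acadl, -0.33 to -0.26 for Hadh and -0.30 to -0.25 for Etfb. Acadm passed in all 8 cases.

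Entry into mitochondria depends on activation by acyl-CoA synthetases and on the carnitine shuttle. Acsl1, the main long-chain acyl-CoA synthetase of liver, had 124, 122, 137 and 108 in NaPB livers, against 147, 157, 150 and 150 in control livers. The groups did not overlap, and the change of -0.31 ± 0.09 lay just outside the threshold (adjusted p = 0.0542). Acsl1 was thus the gene nearest to the threshold on its outer side, and it passed in 6 of 11 settings other than those that leave out a liver, among them arrays shifted to the same median and array weights. With 1 liver left out it passed in 1 of 8 cases, with a highest adjusted p of 0.137.

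Cpt1a, the liver form of the carnitine palmitoyltransferase that controls entry, had 1.202, 1.63, 0.888 and 0.651 in NaPB livers, against 1.06, 0.758, 2.62 and 2.71 in control livers. The NaPB livers spread 2.497-fold, the control livers 3.57-fold, and the groups overlapped. The change of -0.58 ± 0.45 did not pass, with a 95% interval of -1.62 to 0.45 (adjusted p = 0.450). All 10 features of Cpt1a gave similar changes, from -0.66 to -0.54.

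Cpt1b, the form of the same enzyme that predominates in muscle, was dim on these arrays. It had 0.0933, 0.0751, 0.0902 and 0.0785 in NaPB livers, against 0.119, 0.129, 0.113 and 0.122 in control livers. The diets did not overlap, and Cpt1b fell by 0.52 ± 0.09 (adjusted p = 0.00992 in limma). Of its 3 features 1 lay at the floor on all 8 arrays, and the other features changed by -0.90 and -0.68, so the mean understates their decrease. The call was lost with the brightest feature alone (adjusted p = 0.0525) and with the replicate number as a block (0.0561).

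Later parts of the shuttle did not pass. Cpt2, which rebuilds acyl-CoA inside mitochondria, was at -0.078 ± 0.19, and Slc25a20, the carnitine-acylcarnitine carrier, was at 0.059 ± 0.12 (-0.0023 with arrays shifted to the same median). Crat, which moves acetyl and other short groups between CoA and carnitine, had 3.71, 5.74, 2.67 and 3.97 in NaPB livers, against 2.08, 2.84, 8.30 and 4.51 in control livers. Control livers spanned 4.00-fold, so that the 95% interval of the change of 0.0071 reached from -0.92 to 0.94.

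Among the peroxisomal genes, Hao2 and Hao1 stood out. Hao2 encodes an oxidase of long-chain 2-hydroxy acids, and Hao1 the glycolate oxidase of liver, both of which form hydrogen peroxide. Hao2 had 2.80, 2.69, 1.58 and 2.48 in NaPB livers, against 7.72, 11.6, 8.43 and 7.14 in control livers. Its lowest control liver was well above its highest NaPB liver, and Hao2 fell by 1.88 ± 0.21, to 27.2% of the control level (adjusted p = 0.00129 in limma). Hao1 had 2.97, 3.38, 2.51 and 3.23 in NaPB livers, against 4.55, 5.56, 7.25 and 5.17 in control livers. It too separated the diets and fell by 0.88 ± 0.15, to 54.2% of the control level (adjusted p = 0.00919 in limma). The ratio of Hao2 to Hao1 was lower by 1.00 on the log2 scale with NaPB, without overlap. Both calls held in all 8 fits that left out 1 liver. In the 11 other settings Hao2 passed in 11 and Hao1 in 10, with a highest adjusted p of 0.0651 for Hao1.

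None of the peroxisomal beta-oxidation enzymes passed. Acox2, which oxidizes branched chains and bile acid precursors, had 3.12, 3.31, 3.16 and 3.57 in NaPB livers, against 9.63, 3.53, 4.37 and 4.10 in control livers. A single control liver, replicate 1, lay far above the rest, and the change of -0.60 ± 0.28 (adjusted p = 0.209) became -0.28 without it. Ehhadh, the bifunctional enzyme of straight chains and a textbook PPAR-alpha target, had 2.88, 2.67, 3.14 and 2.59 in NaPB livers, against 3.97, 3.95, 2.82 and 3.33 in control livers. Control replicate 3 lay among the NaPB livers, and the change was -0.31 ± 0.13 (adjusted p = 0.153).

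Hsd17b4, the bifunctional enzyme of branched and very long chains, was at 0.079 ± 0.09, and Decr2, the peroxisomal dienoyl-CoA reductase, at -0.27 ± 0.12 (adjusted p = 0.603 and 0.181). The peroxisomal thiolases Acaa1a and Acaa1b were at 0.10 ± 0.07 and 0.14 ± 0.10 (adjusted p = 0.395 and 0.398). These thiolase genes have very similar sequences, so that their probes may not tell them apart, and the 4 features of Acaa1a changed by -0.058 to 0.27. In the main analysis the intervals of both excluded a decrease of more than 0.084 on the log2 scale. Over the settings other than leaving out a liver, the lowest change was 0.0026 for Acaa1a and 0.081 for Acaa1b.

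Of the other peroxisomal genes, Cat, which encodes catalase, had 14.7, 14.7, 12.9 and 17.7 in NaPB livers, against 15.3, 16.2, 17.3 and 12.5 in control livers. The groups overlapped throughout, with a change of -0.027 ± 0.13 (adjusted p = 0.918). Crot, which passes shortened acyl groups to carnitine for export, was at -0.42 ± 0.16, and Pex11a, a factor of peroxisome division that PPAR-alpha induces, at -0.42 ± 0.16. Neither passed (adjusted p = 0.145 and 0.141), and Crot passed only without NaPB replicate 3 (adjusted p = 0.0349).

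Ketone bodies are made from acetyl-CoA in liver mitochondria and exported. Bdh1, which interconverts acetoacetate and 3-hydroxybutyrate, had 6.33, 5.96, 7.57 and 6.47 in NaPB livers, against 6.30, 6.10, 7.19 and 7.32 in control livers. The diets overlapped, and the 95% interval of its change ran from -0.26 to 0.20 (adjusted p = 0.864). Of 6 further ketone body genes named on the array, 2 fell and 1 rose, beside 4.29% and 6.16% of all tested genes. Acat1, whose thiolase condenses acetyl-CoA at the start of the route, fell by 0.43 ± 0.10, with 2.22 to 2.65 in NaPB livers and 2.81 to 3.69 in control livers (adjusted p = 0.0332 in limma). Slc16a1, a monocarboxylate transporter that carries lactate and ketone bodies, fell by 0.90 ± 0.12, with 0.765 to 0.934 in NaPB livers and 1.25 to 1.74 in control livers (adjusted p = 0.00267 in limma). Bdh2, a cytosolic dehydrogenase related to Bdh1 by name, rose by 0.89 ± 0.20, with 0.168 to 0.319 in NaPB livers and 0.108 to 0.148 in control livers (adjusted p = 0.0251 in limma). With 1 liver left out, Slc16a1 passed in 8 of 8 cases, Bdh2 in 4 and Acat1 in 2.

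**Figure D3:**
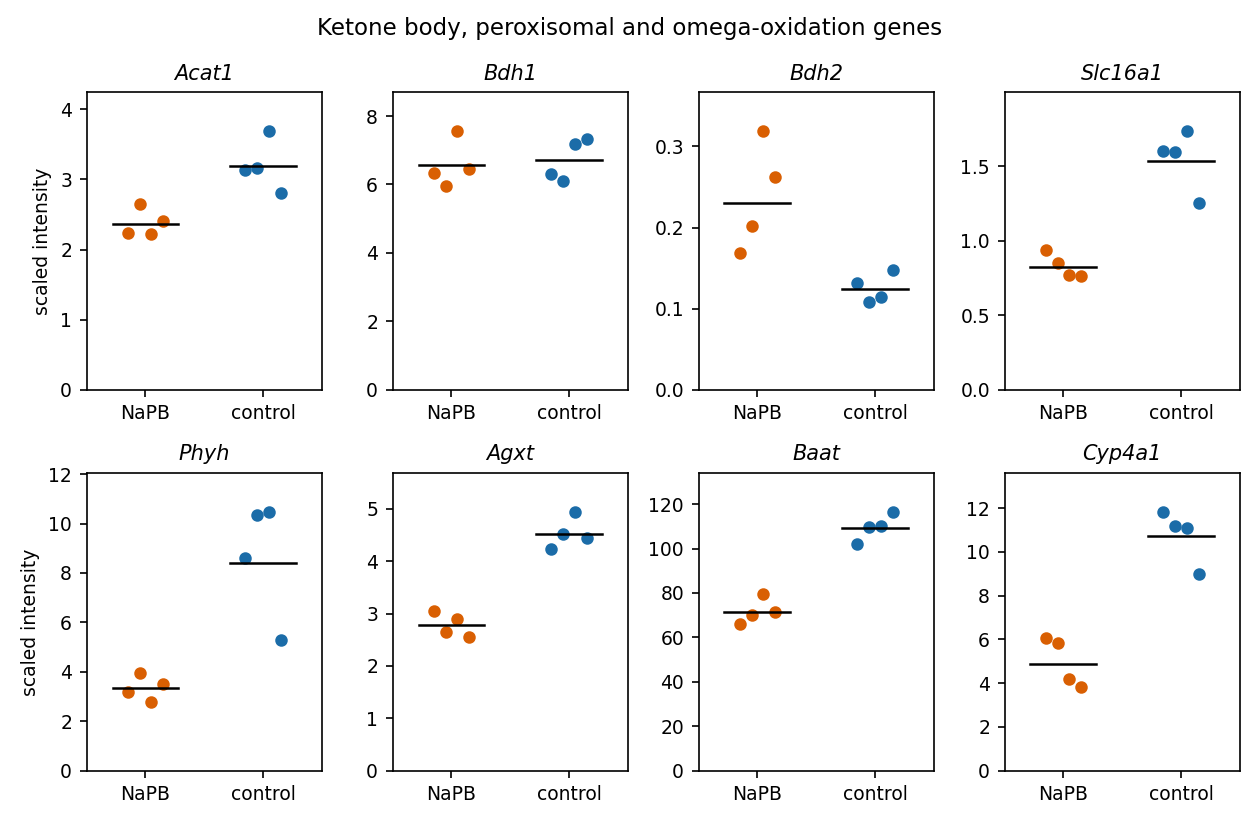
Scaled intensity (vertical axis, starting at 0 in each panel) of ketone body genes (Acat1, Bdh1, Bdh2, Slc16a1), further peroxisomal genes (Phyh, Agxt, Baat) and the fatty acid hydroxylase gene Cyp4a1 in 4 NaPB livers (left) and 4 control livers (right); bars are means on the log2 scale. Bdh1 overlaps between the diets, Bdh2 is higher in NaPB livers and the other genes shown are lower.

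Acyl-CoA thioesterases release free fatty acids from CoA, and Acot1, Acot2 and Acot3 are close paralogs that probes may not tell apart. None of the 3 passed in limma, and 1 was lower at an unadjusted p under 0.05. This was Acot3, which had 0.201, 0.197, 0.183 and 0.165 in NaPB livers, against 0.392, 0.325, 0.194 and 0.237 in control livers. Control replicate 3 lay among the NaPB livers, and the change was -0.57 ± 0.20 (adjusted p = 0.113, and 0.0408 without that liver). Acot2 was at -0.18 ± 0.12 and Acot1, close to the floor, at -0.13 ± 0.16.

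Fabp1, Pdk4, Vnn1, Angptl4 and Creb3l3, which bind fatty acids or respond to fasting, did not pass in limma, also at an unadjusted p under 0.05. Fabp1, the fatty acid binding protein of hepatocytes, ranged from 234 to 253 in NaPB livers and from 254 to 277 in control livers, a change of -0.093 ± 0.07 (adjusted p = 0.410) that turned to 0.048 after quantile normalization. Pdk4, the kinase that turns off pyruvate dehydrogenase in fasting, had 0.438, 0.419, 0.378 and 0.267 in NaPB livers, against 0.323, 0.392, 0.437 and 0.343 in control livers. Its change was -0.0078 ± 0.17 (adjusted p = 0.983). Creb3l3, a liver transcription factor of the fasting response, was at -0.078 ± 0.12.

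Vnn1, a pantetheinase and PPAR-alpha target, had 0.272, 0.485, 0.285 and 0.316 in NaPB livers, against 0.187, 0.211, 0.447 and 0.140 in control livers. Except for control replicate 3, the control livers lay below all NaPB livers, and the change of 0.57 ± 0.34 did not pass (adjusted p = 0.322, and 0.0537 without that liver). Angptl4, a secreted inhibitor of lipoprotein lipase, had 16.2, 35.2, 9.25 and 12.6 in NaPB livers, against 13.2, 16.7, 14.1 and 12.9 in control livers. NaPB replicate 2 alone lay far above the others, and the change of 0.18 ± 0.35 turned to -0.19 without it.

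Individual livers differed in the same direction across many of these genes. NaPB replicate 2 had the highest level of its group in 23 of the 39 genes and NaPB replicate 4 the lowest in 22. Control replicate 3 had the highest level of its group in 23 and control replicate 4 the lowest in 21. Over all tested genes the same livers held these places in 30.0%, 32.0%, 31.4% and 34.7% of cases, beside 59.0%, 56.4%, 59.0% and 53.8% of the 39. Spread within a group was widest for Crat, Cpt1a, Vnn1, Acox2 and Acot3 in control livers, each over 2-fold, and for Angptl4, Cpt1a and Crat in NaPB livers. The median gene spread 1.27-fold in NaPB livers and 1.29-fold in control livers. Genes that fell, other than Hao2 and Hao1, spread by 1.24-fold or less in NaPB livers and at most 1.16-fold in control livers.

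**Figure D4:**
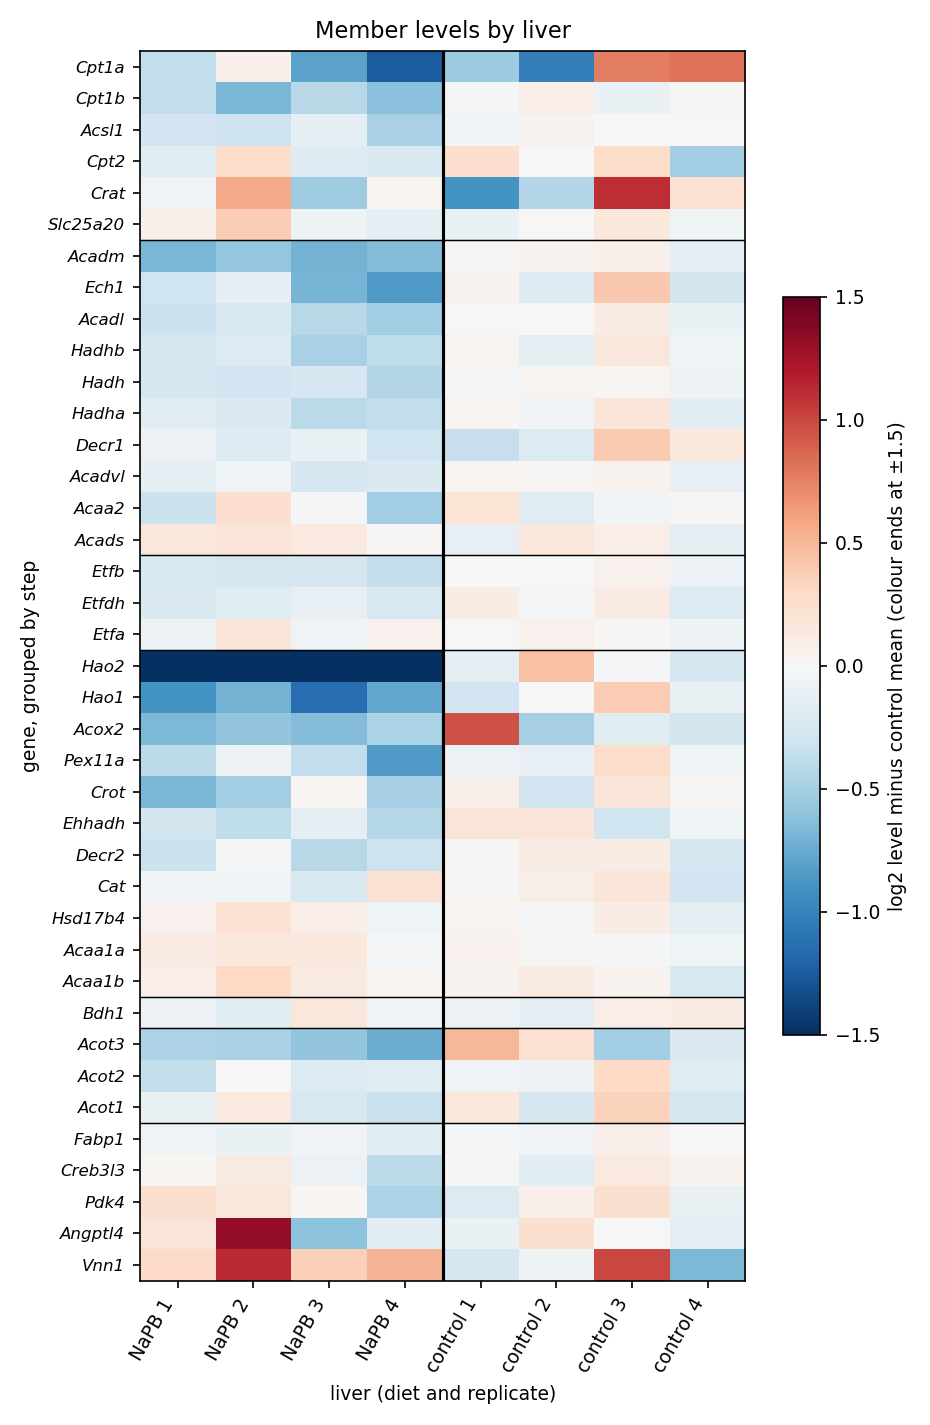
Log2 level of the 39 genes (rows, grouped by step) in each liver (columns, NaPB left and control right) minus the mean of the control livers, with colours ending at ±1.5. Hao2 is below the end of the scale in all NaPB livers, Acadm and Hao1 are low in all of them, and Crat, Cpt1a and Vnn1 vary within both diets.

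Related genes outside the 39, taken from written lists, went both ways. Of 106 tested, 12 fell (11.3%) and 7 rose (6.60%), with a median of -0.10, beside 4.29% and 6.16% of all tested genes. Among other mitochondrial genes 1 of 21 fell and 2 rose: Hsd17b10, a short-chain dehydrogenase of branched substrates, fell by 0.52 ± 0.11, Acad9, which also helps to assemble respiratory complex I, rose by 0.66 ± 0.15, and the thioesterase Acot9 rose by 0.81 ± 0.08. Acad9 passed in only 1 of the 8 fits that left out a liver, and Hsd17b10 in 7, with its call lost without control replicate 1 (adjusted p = 0.0523). Of these genes, Acot9 had 0.908 to 1.00 in NaPB livers and 0.503 to 0.604 in control livers (adjusted p = 0.000768 in limma).

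Of 30 other peroxisomal genes 3 fell and 3 rose, beside 4.29% and 6.16% of all tested genes. Phyh, which starts the alpha-oxidation of phytanic acid, had 3.19, 3.96, 2.80 and 3.52 in NaPB livers, against 8.63, 10.4, 10.5 and 5.30 in control livers. It fell by 1.33 ± 0.22 without overlap between diets (adjusted p = 0.00720 in limma). Agxt, the aminotransferase that detoxifies the glyoxylate formed by Hao1, fell by 0.70 ± 0.09, with 2.56 to 3.04 in NaPB livers and 4.23 to 4.94 in control livers (adjusted p = 0.00183 in limma). Baat, which conjugates bile acids, fell by 0.61 ± 0.08, with 65.9 to 79.6 in NaPB livers and 102 to 117 in control livers (adjusted p = 0.00295 in limma). The protease Lonp2 rose by 0.47 ± 0.09 and the enoyl-CoA reductase Pecr by 0.33 ± 0.08. Idi1, an enzyme of isoprenoid and cholesterol synthesis and not of fatty acid breakdown, rose by 0.84 ± 0.22. With 1 liver left out, Phyh, Agxt, Baat and Lonp2 passed in 8 of 8 cases, and Pecr and Idi1 in 1. None of 11 tested peroxins, which build peroxisomes, passed in limma, with a median of -0.015 and 2 higher at an unadjusted p under 0.05. At that unadjusted level 14.3% of all tested genes were higher.

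Among 18 tested regulators 3 fell and 1 rose, beside 4.29% and 6.16% of all tested genes. Ppara had 0.325, 0.484, 0.282 and 0.353 in NaPB livers, against 0.288, 0.325, 0.594 and 0.332 in control livers, and overlapped between diets at -0.061 ± 0.24 (adjusted p = 0.899). Rxra, the partner of both PPAR-alpha and CAR, fell by 0.57 ± 0.11, with 0.197 to 0.270 in NaPB livers and 0.340 to 0.391 in control livers (adjusted p = 0.0160 in limma). Sirt3, a mitochondrial deacetylase, fell by 0.60 ± 0.12, Nr1i3, which encodes CAR, fell by 0.70 ± 0.18, and the hepatocyte factor Hnf4a rose by 0.57 ± 0.10. Nr1i3 passed in 2 of the 8 fits that left out a liver, the others of these called genes in 8. The coactivator gene Ppargc1a lay at the floor in 6 of 8 NaPB and 7 of 8 control feature values and was not tested.

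Of 20 other PPAR-alpha targets 3 fell and 0 rose, with a median of -0.11 (4 lower and 0 higher at an unadjusted p under 0.05 in limma). Over all tested genes 4.29% fell and 6.16% rose, and 12.5% were lower and 14.3% higher at that unadjusted level. Cyp4a1, whose P450 hydroxylates fatty acids at the omega end, had 6.04, 5.83, 4.20 and 3.83 in NaPB livers, against 11.8, 11.2, 11.1 and 8.99 in control livers. No NaPB liver reached the lowest control liver, and the decrease was 1.14 ± 0.17 (adjusted p = 0.00423 in limma). The lipid droplet genes Cidec and Plin2 fell by 0.53 ± 0.13 and 0.48 ± 0.13 and passed in 2 of 8 fits that left out a liver.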

How the data were processed

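The authors deposited linear Cy3 intensity of 62976 features per array. Its 75th percentile over named features was 1.08 to 1.09 on all 8 arrays, so the deposited values were already scaled per array. The deposited scale, used as an alternative setting, was therefore close to the main scaling. The scanner output was read in Agilent Feature Extraction, version 10.7, as the submitters' processing notes name it, and how background, flags and scale were handled is not given in the sources used here. One symbol was attached to 45904 features and several to 0, as the platform's annotation gives them. Here, intensities were divided by that percentile of their own array, raised to a floor of 0.03 where lower, put on the log2 scale and averaged by gene. A gene was tested if 3 or more arrays of either diet exceeded the floor. The comparison used limma 3.58.1 in R 4.3.3 (lmFit and eBayes, two-sided), with p-values adjusted by Benjamini-Hochberg across the 10944 genes and a threshold of 0.05. The code was also run on simulated data in which genes varied independently. That run does not cover differences that a liver shares across genes. Groups follow the dose in the labels. With no slide or scan date, batches were not tested. Deviations from the group mean of same-numbered animals correlated at r = -0.13 to 0.076. For each NaPB liver, the highest r with a control liver of another number was 0.025 to 0.27. The numbers were therefore not treated as pairs, though such correlations cannot show whether animals shared a batch.

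The 39 genes, the lists and the settings were chosen with earlier results of these data known, and the 7 gene pairs after the values were seen. Named genes are all 39, the related genes past the threshold, a fixed few whatever their result (Acat1, Ppara, Ppargc1a, Rxra, Cyp4a1), Cyp2b2 as a check, and markers a result needs. Alternatives changed the scaling (quantile, equal medians, deposited scale), the floor (0.1), the filter (none, or only genes above the median level), the feature (brightest), the variance model (Welch test, trended and robust prior, array weights) and the samples (replicate block, each array left out). Counts and ratios were computed in Python 3.11.15 and figures drawn with matplotlib 3.10.9.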

Additional observations from a re-analysis of the deposited data

Results flagged for a closer look

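In groups of 4 livers, a single liver stood apart from the others in 2 of 118 groups of gene values examined (59 genes, 1.69%), fewer than the about 1 in 20 that chance alone gives. Cpt2 was 6.24 in NaPB replicate 2 and 4.41 to 4.61 in the other NaPB livers (gap 0.874 of the range). Pex11a was 4.40 in control replicate 3 and 3.32 to 3.47 in the other control livers (gap 0.847 of the range). These are the same livers that held the highest level of their group in most of the 39 genes.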

How the results depend on the processing

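No setting called any of the 39 genes higher with NaPB, and no sign change touched a gene that fell. No sign could change in the Welch test, replicate block, trended and robust prior or filter settings, which gave the main log2 changes. Of 739 values of the 39 genes under 19 alternatives, 671 kept direction and side of the threshold, 28 lost the call, 12 gained it and 28 changed sign, in 11 genes. Only the 7 genes that fell could lose a call, so the 739 values are not the measure of how often calls held. Acadl, Hadh and Etfb lost it most often, passing in 2, 2 and 1 of the 8 fits without 1 liver. Acadm and Hao2 passed in all 19. Calls lost in the Welch test included Hao1 (adjusted p = 0.0651) and Cpt1b (0.0585). The Welch test, which borrows no variance from other genes, called 320 genes of the array (219 higher, 101 lower), 3 of the 39, 1 of mitochondrial beta-oxidation and 1 peroxisomal gene. The replicate block, which spends degrees of freedom on the replicate numbers, called 583 (354 higher, 229 lower), 3 of the 39 and 1 of mitochondrial beta-oxidation. With arrays shifted to the same median, 760 genes were lower and 5 genes of mitochondrial beta-oxidation fell. Of all genes called, 58.9% were higher in the main analysis, 50.2% after quantile normalization and 41.3% with arrays at the same median. Leaving out 1 liver, with fewer samples, gave 625 to 980 called genes (385 to 556 higher, 240 to 426 lower), 4 to 7 of the 39 and 1 to 3 of mitochondrial beta-oxidation. Signs turned for genes that did not pass. With the brightest feature Acot1 was at 0.29, Cpt2 at 0.017, Crat at -0.014, Etfa at -0.016 and Ppara at 0.0050. With arrays at the same median Crat was at -0.054, Etfa at -0.034 and Slc25a20 at -0.0023. Fabp1 was at 0.048 after quantile normalization and Pdk4 at 0.028 with array weights. Leaving out 1 liver gave ranges of -0.19 to 0.45 for Angptl4, -0.10 to 0.012 for Bdh1, -0.12 to 0.042 for Cat, -0.25 to 0.013 for Cpt2, -0.29 to 0.38 for Crat, -0.15 to 0.026 for Creb3l3, -0.023 to 0.063 for Etfa, -0.091 to 0.15 for Pdk4, -0.045 to 0.12 for Slc25a20 and -0.21 to 0.17 for Ppara. The causes of these changes were not tested. Signal over background limits Cpt1b and Acot1, which lay near the floor.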

Other observations

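The liver hormone gene Fgf21, which PPAR-alpha induces in fasting, also varied more between livers than between diets. It had 0.0554, 0.235, 0.0859 and 0.0949 in NaPB livers, against 0.0752, 0.0665, 0.280 and 0.180 in control livers. Its highest values were in NaPB replicate 2 and control replicate 3, the livers that led their groups in most of the 39 genes. Cyp4a2, a fatty acid hydroxylase gene, ranged from 29.9 to 58.2 in NaPB livers and from 14.7 to 76.0 in control livers. The change was -0.31 ± 0.55 for Fgf21 and 0.13 ± 0.45 for Cyp4a2, and neither passed (adjusted p = 0.754 and 0.885 in limma). Both genes were chosen after their values were seen.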
